A study of Capra hircus with 3 samples.

Results

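The 10 genes described here are the macrophage and complement C1q genes C1QA, C1QB, C1QC, CD68, CD163, CD14, CSF1R, MRC1, TYROBP and AIF1. They were taken by name. Of the 10 genes, 9 were found among the 24689 entries of the deposited table, 8 of them by their product text and CSF1R by its gene number. CD163 had no entry under its own name. An entry annotated as scavenger receptor cysteine-rich type 1 protein M130-like (gene 102183943) carries the other name of the CD163 protein, M130. Whether it is the goat CD163 gene is not settled by the annotation, so it is given beside the 9 genes and is not counted with them.

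Goat (Capra hircus) longissimus dorsi, a long back muscle that extends the spine, was the tissue sequenced. The kid library came from an age of 2 months, the youth library from 9 months and the adult library from 24 months. Each stage had 1 library, so no difference has a replicate check, stages could not be tested against each other and each value is that of 1 library. The sources used here give no treatment, sex, breed, number of animals or pooling.

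Tissue macrophages are resident phagocytes that take up dying cells, debris and pathogens. In skeletal muscle they lie in the connective tissue between the fibres and take part in clearing and repair after damage. They are also a main source of C1q, the recognition molecule of the classical complement pathway. C1q binds antibody complexes, dying cells and other surfaces and then activates the proteases C1r and C1s. Survival of most tissue macrophages depends on signalling through CSF1R, the receptor for the cytokines CSF1 and IL-34.

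Levels are FPKM (fragments relative to gene length and library total), so levels of different genes can be compared per length. The library totals behind the values, inferred here from the steps of the FPKM values, were 15829474 (kid), 14920689 (youth) and 18399385 (adult) reads. At 1 kb of gene length, 3 reads were worth 0.190, 0.201 and 0.163 FPKM, a guide to low values that was not used as a filter. The label for the tissue is longissimus dorsi, whereas the protocol text of the labels speaks of mammary tissue. The muscle actin ACTA1 stood at 14480, 17994 and 21435 FPKM in kid, youth and adult, and the milk protein genes LALBA, CSN1S1, CSN2 and CSN3 were at 0 in each library. The values in brackets after a ratio are exact 95% intervals of the reads of both libraries, which cover counting error only and compare libraries, not stages.

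All 9 genes were lower in the adult library than in the youth library and than in the kid library. The sum of their levels was 79.5 FPKM (kid), 86.4 (youth) and 43.3 (adult). Kid and youth lay close together, and adult lay apart from both. In bulk muscle RNA, fewer macrophages and less of these RNAs per macrophage cannot be told apart.

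**Figure D1:**
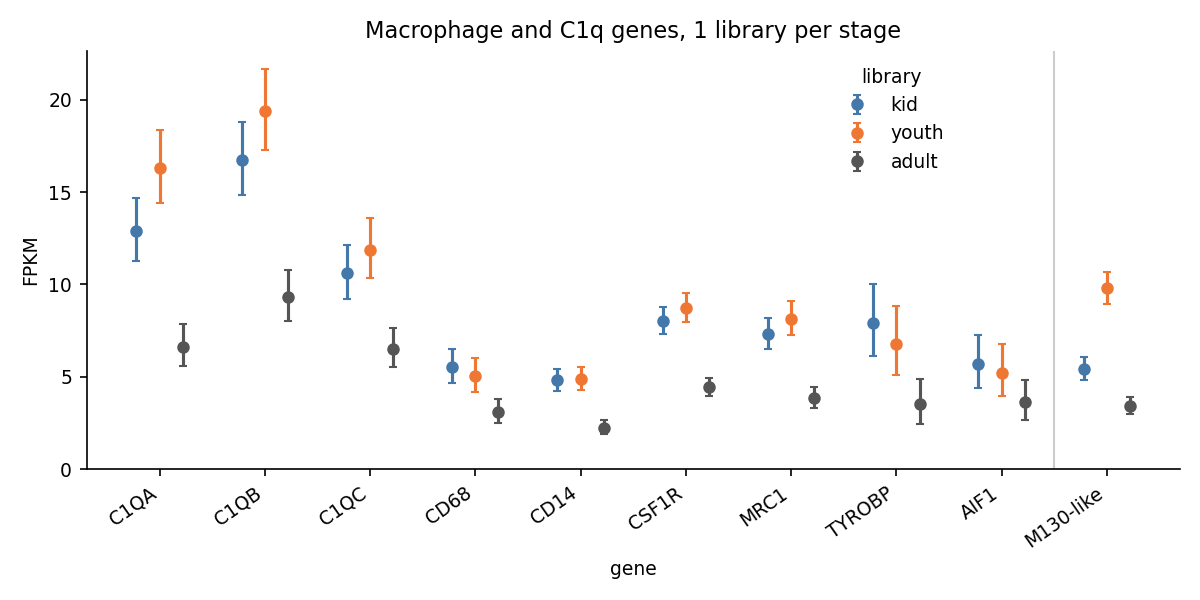
Level of each gene in FPKM (y axis) in the kid, youth and adult libraries (1 library per stage), with bars for the exact 95% counting interval of the reads. The adult value is the lowest for all 9 genes, and the M130-like entry, right of the grey line, is highest in youth at 9.79 FPKM.

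The genes of the C1q chains were the most abundant of the 9 in each library. C1QB (gene 102186813), which encodes the B chain, stood at 16.7 FPKM (kid), 19.4 (youth) and 9.34 (adult), from 282, 308 and 183 reads. C1QA (gene 102187545), which encodes the A chain, stood at 12.9, 16.3 and 6.64 FPKM, from 224, 267 and 134 reads. C1QC (gene 102187279), which encodes the C chain, stood at 10.6, 11.9 and 6.52 FPKM, from 207, 219 and 148 reads. The order of the chains was therefore B, A, C in all 3 libraries, although in adult the A and C chains had overlapping intervals of 5.56 to 7.86 and 5.51 to 7.66 FPKM. Among the 12121 genes averaging 1 FPKM or more over the libraries, C1QB stood at percentile 74.9 in youth and 56.9 in adult, and C1QA at 71.1 and 46.8.

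The levels of all C1q chain genes were lower in adult. C1QA was 2.46-fold below youth in adult (interval 1.99 to 3.05), C1QB 2.08-fold lower (interval 1.72 to 2.51) and C1QC 1.82-fold lower (interval 1.47 to 2.26). Their sum was 40.2 FPKM (kid), 47.6 (youth) and 22.5 (adult). C1QB made up 41.6%, 40.7% and 41.5% of that sum. C1QA made up 32.1%, 34.3% and 29.5%, and C1QC 26.3%, 24.99% and 29.0%. The assembled C1q protein holds the chains in equal numbers, and none of the ratios between chains had a between-library interval that left out 1. C1QA was the 1 gene of the 9 whose interval between youth and kid left out 1, at 1.26-fold higher in youth (interval 1.05 to 1.52).

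The surface and lysosomal receptors followed with lower levels. MRC1 (gene 102181218), the mannose receptor, which takes up glycoproteins and is typical of resident macrophages, stood at 7.31, 8.14 and 3.86 FPKM in kid, youth and adult, from 301, 316 and 185 reads. CD68 (gene 102189793), a glycoprotein of the lysosome membrane of phagocytes, stood at 5.51, 5.03 and 3.12 FPKM, from 143, 123 and 94 reads. CD14 (gene 102177056), the co-receptor that hands bacterial lipopolysaccharide to the TLR4 receptor, stood at 4.80, 4.89 and 2.25 FPKM, from 252, 242 and 137 reads. All 3 had similar levels in kid and youth, and the intervals of youth against kid included 1 for each. CD14 had the lowest level of the 9 genes in all 3 libraries, at percentile 33.9, 36.9 and 17.5 of the 12121 genes, though its interval overlapped those of its nearest neighbours in kid, youth and adult. From youth to adult the level was 2.18-fold lower for CD14 (1.76 to 2.71), 2.11-fold lower for MRC1 (1.75 to 2.54) and 1.61-fold lower for CD68 (1.22 to 2.13).

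The M130-like entry had another shape across the libraries. Its level was 5.44 FPKM (kid), 9.79 (youth) and 3.43 (adult), from 306, 519 and 224 reads. CD163 is the scavenger receptor through which macrophages take up complexes of haemoglobin and haptoglobin. The entry was 1.80-fold higher in youth than in kid (interval 1.56 to 2.08) and 2.86-fold below youth in adult (interval 2.44 to 3.36). Set against CD68 it stood at 0.987 times the FPKM level in kid, 1.95 times in youth and 1.10 times in adult. The change of the ratio from kid to youth had an interval leaving out 1 against 9 of the 9 genes, and from youth to adult against 7 of 9. From kid to adult it left out 1 only against CD14.

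The signalling genes showed the same order of adult below both others. CSF1R (gene 100861303), the receptor tyrosine kinase for CSF1 and IL-34, stood at 8.03, 8.71 and 4.43 FPKM in kid, youth and adult, from 474, 485 and 304 reads. TYROBP (gene 102175151), the adaptor also called DAP12 that signals for TREM2 and related receptors, stood at 7.91, 6.79 and 3.50 FPKM, from 68, 55 and 35 reads. AIF1 (gene 100860979), the actin-binding protein also called IBA1, stood at 5.70, 5.21 and 3.62 FPKM, from 65, 56 and 48 reads. CSF1R had the most reads of the 9 genes and the narrowest interval, and TYROBP and AIF1 had the fewest reads. CSF1R was 1.97-fold below youth in adult (interval 1.70 to 2.28) and TYROBP 1.94-fold lower (interval 1.25 to 3.05). AIF1 was 1.44-fold lower with an interval that included 1 (0.961 to 2.16). With libraries scaled to equal sums of FPKM the ratio of adult to youth for AIF1 was 0.665 and the interval left out 1, which makes 9 of 9 genes. Between adult and kid, AIF1 was 1.57-fold lower and the interval, 1.07 to 2.34, left out 1.

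**Figure D2:**
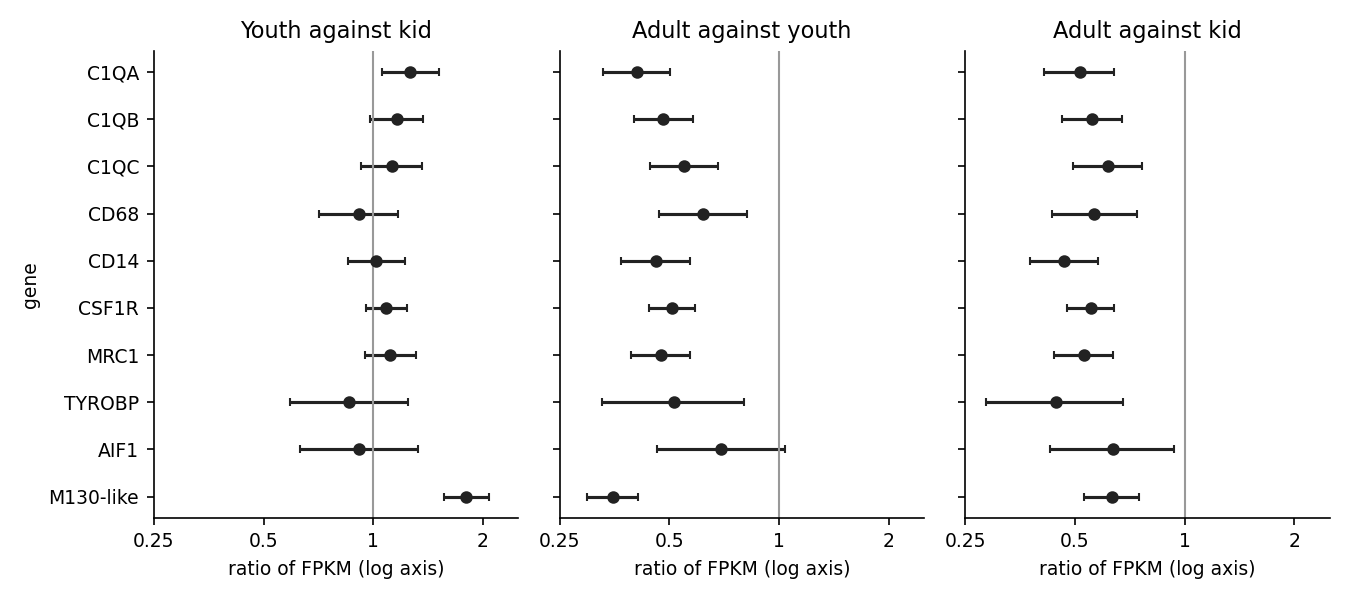
Ratio of FPKM between libraries for each gene in the 3 comparisons (log axis), with exact 95% intervals of the reads and a line at 1. In adult against youth all 9 ratios lie below 1 and the interval of AIF1 crosses 1.

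Youth against kid gave small differences in both directions. Of the 9 genes, 6 were higher in youth and 3, CD68, TYROBP and AIF1, were lower, with ratios from 0.858 for TYROBP to 1.26 for C1QA. AIF1 was the 1 of them on the other side under a scaling, at a ratio of 1.003 after quantile normalization. The interval lay above 1 for 1 gene (C1QA), against 11.6% of all 12121 genes, and below 1 for none, against 26.9%. After scaling that sets the typical gene equal in both libraries, C1QB, CSF1R and MRC1 joined C1QA, which makes 4 of 9. The shares over all genes are for the unscaled values and were not counted after scaling, so this count has no share beside it. None of the 9 differed by at least 2-fold on the scale of log2(FPKM + 1), against 0.421% of all genes higher and 0.627% lower. The median difference over the 9 genes was 0.11 on that scale, against -0.08 over all genes.

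Adult against youth gave differences in a single direction. The interval lay below 1 for 8 of the 9 genes, against 27.0% of all genes, and above 1 for none, against 22.3%. The median difference was -0.84 on the scale of log2(FPKM + 1), against -0.02 over all genes. C1QA was the 1 gene at least 2-fold lower on that scale, a call made for 1.07% of all genes, and none was 2-fold higher, against 1.01%. The added 1 on that scale shrinks differences at these low levels. By the plain FPKM ratio C1QA, C1QB, CD14 and MRC1 were at least 2-fold lower, 4 of 9 against 2.81% of all genes. At least 1.5-fold lower, a size chosen after the values were seen, were 8 of 9, against 9.17% of all genes.

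Adult against kid shares its libraries with the other comparisons and is given for its own values. The interval lay below 1 for 9 of the 9 genes, against 34.6% of all genes, and above 1 for none, against 16.7%. After quantile normalization, scaling to a median ratio of 1 or scaling by a trimmed mean, the interval of AIF1 included 1 and 8 of 9 were left. The median difference was -0.77 on the scale of log2(FPKM + 1), against -0.10 over all genes, and none of the 9 was at least 2-fold lower on that scale, against 1.22%, or higher, against 0.536%. By the plain FPKM ratio TYROBP was 2.26-fold lower (interval 1.48 to 3.50) and CD14 2.14-fold lower (interval 1.73 to 2.65), 2 of 9 against 3.23% of all genes. C1QA was 1.94-fold lower (interval 1.56 to 2.43), MRC1 1.89-fold (1.57 to 2.28), CSF1R 1.81-fold (1.57 to 2.10) and C1QB 1.79-fold (1.48 to 2.17). CD68 was 1.77-fold lower (interval 1.35 to 2.32) and C1QC 1.63-fold (1.31 to 2.02).

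The adult library held the lowest level for 9 of 9 genes, against 45.2% of all genes. It lay below both others with both intervals below 1 for 8 of 9, against 20.3%. The youth library held the highest level for 6 of 9 genes, against 25.6% of all genes, and the kid library for the other three, against 44.4%. The genes highest in kid were CD68, TYROBP and AIF1.

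**Figure D3:**
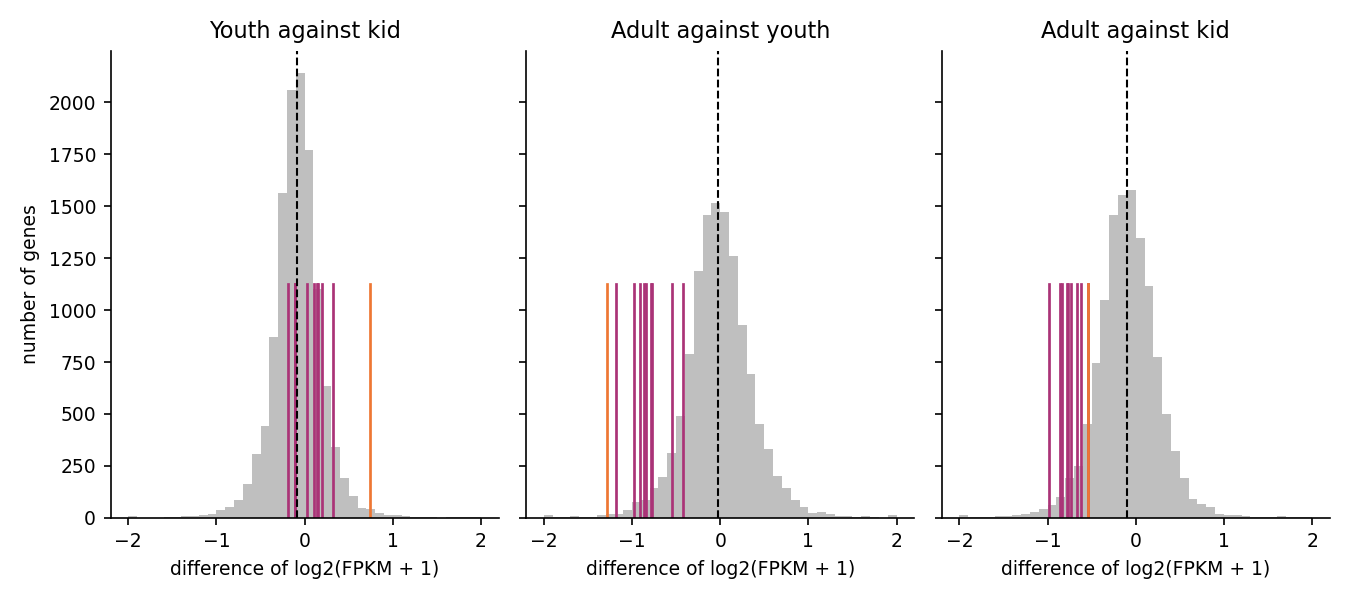
Distribution of the differences of log2(FPKM + 1) over all 12121 genes in the 3 comparisons (x axis, values beyond 2 in either direction drawn at the edge; y axis, number of genes), with purple lines for the 9 genes, an orange line for the M130-like entry and a dashed line for the median of all genes. In adult against youth the 9 lines lie between -1.18 and -0.43, left of the median of -0.02.

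The genes were also compared with each other, as the change of the ratio between a pair of genes from one library to the next. Of 36 pairs, the interval left out 1 for 1 pair in youth against kid, 2 pairs in adult against youth and 0 pairs in adult against kid, with no adjustment over the pairs. C1QA to CD68 was 1.39 times as high in youth as in kid (1.02 to 1.89) and 0.657 times as high in adult as in youth (0.461 to 0.936). C1QA to AIF1 was 0.586 times as high in adult as in youth (0.370 to 0.931). For the other pairs the counting error at these depths did not separate the genes, which does not show that they moved alike.

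Other genes typical of macrophages and monocytes were mostly lower in adult too. The list held 35 genes, of which 33 had an entry and 17 averaged 1 FPKM or more. A gene can reach that mean through the library where it is high, so this count and those of the lists that follow describe only the genes that reached it. In adult against youth, 17 of the 17 were lower, against 52.7% of all 12121 genes, and 14 had an interval below 1, against 27.0%. The shares over all genes are the same for each list that follows. The median difference was -0.55 on the scale of log2(FPKM + 1). In adult against kid, 15 of the 17 had an interval below 1, against 34.6% of all genes. The exceptions were STAB1 and MERTK, with adult to kid ratios of 0.997 and 1.02, and both changed sides under a scaling. Of the 16 genes below that mean, 13 were lower and 3 were higher, CX3CR1 and CCR2 among them. The share over all genes below that mean was not counted, so this count has no share beside it. Some of the 16 rest on few reads, such as TREM2 with 5 in youth and 1 in adult, where the interval included 1. The sum of the list was 118 FPKM (kid), 112 (youth) and 67.8 (adult). LYVE1, a hyaluronan receptor of resident macrophages that lymphatic endothelium also carries, stood at 25.3, 22.0 and 13.8 FPKM and was 1.60-fold below youth in adult (interval 1.41 to 1.82). FOLR2, a folate receptor of resident macrophages, stood at 2.83, 3.79 and 0.780 FPKM and was 4.86-fold lower (interval 2.77 to 9.01). The Fc receptor gene FCGR1A stood at 3.01, 3.02 and 1.04 FPKM and was 2.91-fold lower (interval 1.84 to 4.70). CTSS, a protease of the antigen-presenting compartment, was 1.54-fold lower (interval 1.27 to 1.87), and was already lower in youth (9.58 FPKM) than in kid (13.4 FPKM).

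The partners of C1q in the classical pathway were lower in adult as well. C1R, the first protease that C1q activates, stood at 24.6 FPKM (kid), 14.4 (youth) and 11.3 (adult). C1S, the protease next in line, stood at 21.9, 19.3 and 12.6 FPKM and was 1.53-fold below youth in adult (interval 1.38 to 1.70). C1R was also 1.71-fold lower in youth than in kid (interval 1.53 to 1.92) and C1S 1.14-fold lower (interval 1.03 to 1.25). For C3 the interval of youth against kid included 1. Whether the course of C1R or C1S differed from that of the C1q genes was not tested. C3, the central complement component, stood at 29.5, 27.8 and 12.8 FPKM and was 2.17-fold below youth in adult (interval 1.91 to 2.46). Of the 7 listed complement components and lectin pathway proteases that averaged 1 FPKM or more, 6 were lower in adult than in youth. An interval below 1 was found for 5 of the 7, and C8G was the 1 with an interval above 1. The median difference of the 7 genes was -0.33.

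Of 11 genes of the alternative pathway and of complement regulators, 10 were lower in adult than in youth, against 52.7% of all genes, and 6 had an interval below 1, against 27.0%, with a median difference of -0.24. SERPING1, the inhibitor of C1r and C1s, stood at 16.9, 17.5 and 8.41 FPKM and was 2.08-fold lower (interval 1.77 to 2.44). CFD, the protease factor D, which fat cells also make, stood at 5.46, 8.25 and 2.76 FPKM and was 2.99-fold lower (interval 2.11 to 4.30). CLU, a secreted chaperone and the most abundant gene of this list, stood at 102, 94.6 and 84.3 FPKM. CFB, factor B, stood at 2.91 FPKM in kid and at 1.37 and 1.31 in youth and adult, so that its difference lay between kid and youth.

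Genes that share the C1q domain but are not complement components were mixed. Of 14 such genes, 11 were lower in adult than in youth and 3 were higher, with 7 intervals below 1 and 1 above, and a median difference of -0.34. ADIPOQ, the fat cell hormone adiponectin, stood at 64.3, 24.3 and 32.4 FPKM and was 1.33-fold higher in adult than in youth. C1QTNF6 stood at 1.60, 4.49 and 1.80 FPKM, highest in youth. MMRN1, a protein of platelets and endothelium, stood at 3.96, 5.08 and 1.63 FPKM and was 3.11-fold below youth in adult.

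The ligand and regulators around CSF1R did not show one common difference. Of 5 genes, 3 were lower and 2 higher in adult than in youth, 1 with an interval below 1, and the median difference was -0.10. CSF1, the ligand, stood at 5.25, 4.26 and 3.89 FPKM, and was 1.09-fold below youth in adult with an interval that included 1 (0.871 to 1.37). IRF8, a transcription factor of the monocyte lineage, stood at 2.85, 3.76 and 1.82 FPKM and was 2.06-fold lower (interval 1.47 to 2.91). The difference between receptor and ligand was not tested.

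Among the receptors and kinases that signal with TYROBP, 4 of 5 were lower in adult than in youth, 3 with an interval below 1, with a median difference of -0.33. FCER1G, which was also in the macrophage list, is 1 of the 5. SYK, the kinase that docks to the TYROBP motif, stood at 1.22, 1.34 and 0.568 FPKM and was 2.36-fold lower (interval 1.63 to 3.45). FCER1G, an adaptor similar to TYROBP, stood at 7.68, 7.17 and 4.88 FPKM and was 1.47-fold lower (interval 1.05 to 2.06). LYN, a Src family kinase, was 1.35-fold lower (interval 1.06 to 1.73).

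Genes of lipopolysaccharide sensing downstream of CD14 had no common direction in adult against youth. Of 13 genes, 8 were lower and 5 higher (6 to 9 lower over the scalings tried), with 3 intervals below 1 and 3 above. Over all genes 27.0% lay below and 22.3% above, so these shares were near the background, and the median difference was -0.03. LY96, the protein that binds lipopolysaccharide beside TLR4, stood at 3.17, 2.60 and 1.06 FPKM and was 2.47-fold lower (interval 1.39 to 4.53). TICAM1, an adaptor of TLR3 and TLR4 found in many cell types, stood at 2.29, 2.25 and 4.16 FPKM and was 1.84-fold higher (interval 1.43 to 2.39). NFKBIA, the inhibitor of NF-kB, stood at 31.0, 19.8 and 18.9 FPKM, with its difference between kid and youth.

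Genes of heme and iron handling, the pathway that follows uptake by CD163, were mostly higher in adult than in youth. Of 6 genes, 5 were higher in adult than in youth, 4 with an interval above 1, with a median difference of 0.33. HMOX1, the heme oxygenase, stood at 51.6, 34.0 and 51.4 FPKM and was 1.51-fold higher (interval 1.39 to 1.65). FTL, the ferritin light chain, stood at 53.1, 47.7 and 63.5 FPKM. In adult against kid 4 of the 6 were lower and 2 higher (1 to 4 lower over the scalings tried), with a median difference of -0.05. Over all 12121 genes, 7580 were lower and 4541 higher in adult than in kid, so this count was near the background. These genes are expressed by many cell types, muscle fibres included.

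The relatives of MRC1 and the chemokines were lower in adult. Of 4 genes of the mannose receptor family and related lectins, 4 were lower than in youth, 3 with an interval below 1, with a median difference of -0.40. CD209, annotated as a CD209-like lectin, stood at 10.3, 11.4 and 5.55 FPKM and was 2.05-fold lower. MRC2, the collagen uptake receptor of fibroblasts, stood at 8.63, 11.6 and 7.85 FPKM, and LY75, a receptor of dendritic cells, at 6.05, 4.86 and 3.74 FPKM. Of 5 chemokine genes, 5 were lower, 3 with an interval below 1, with a median difference of -0.72. The monocyte attractants CCL2 and CCL8 stood at 3.001, 3.36 and 1.19 FPKM and at 6.67, 4.03 and 1.60 FPKM, and were 2.83-fold and 2.52-fold lower in adult than in youth.

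**Figure D4:**
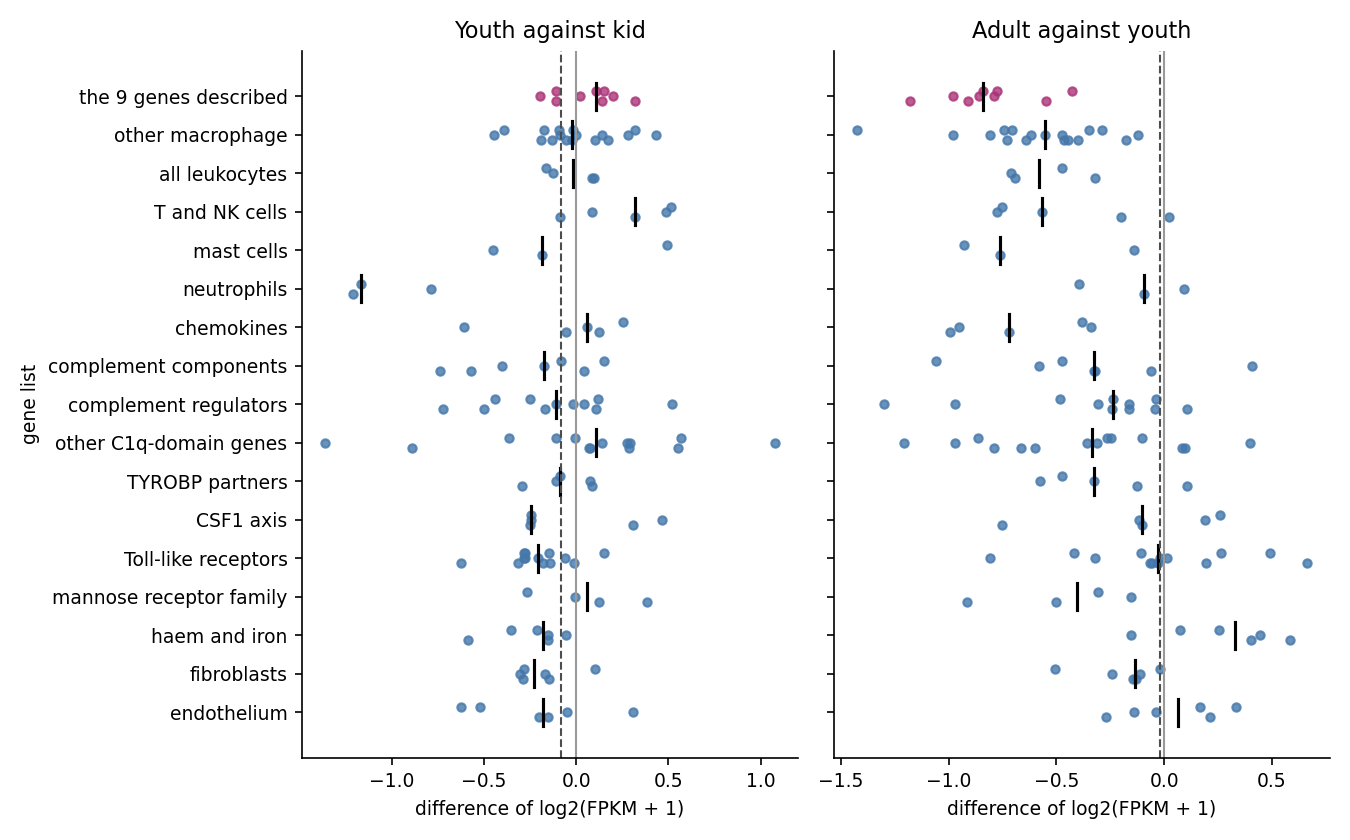
Differences of log2(FPKM + 1) for youth against kid and adult against youth (x axis), with 1 point per gene of each list averaging 1 FPKM or more, a black bar for the median of the list a dashed line for the median of all genes and a grey line at 0. In adult against youth the other macrophage genes have their median at -0.55 and the genes of heme and iron handling at 0.33.

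The counts of lower genes in the pathway lists in adult against youth were the same under all 4 scalings, except for lipopolysaccharide sensing. Markers of other cell types were measured beside these genes. Of 4 genes of all white blood cells, 4 were lower in adult than in youth, 3 with an interval below 1, and the sum of that list was 18.2, 18.2 and 11.3 FPKM in kid, youth and adult. PTPRC, the CD45 antigen, stood at 4.60, 4.94 and 2.68 FPKM and was 1.84-fold lower (interval 1.44 to 2.36). Of 5 genes of T and NK cells, 4 were lower (5 under a scaling, with CD247), 3 with an interval below 1, and their list summed to 9.01, 11.98 and 7.64 FPKM. CD3E, a chain of the T cell receptor complex, stood at 2.61, 4.05 and 2.41 FPKM, highest in youth. Of 3 mast cell genes, 3 were lower, 2 with an interval below 1, and the list summed to 6.32, 5.76 and 2.47 FPKM. KIT, the stem cell factor receptor of mast cells, was 2.55-fold lower (interval 1.92 to 3.40).

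For dendritic cells the 1 gene averaging 1 FPKM or more was ZBTB46, which endothelium also expresses, at 7.79, 9.69 and 4.58 FPKM, and the list of 5 summed to 9.13, 12.6 and 5.30 FPKM. For B and plasma cells the 1 such gene was JCHAIN, the joining chain of antibodies, at 4.86, 3.88 and 2.89 FPKM, while PAX5, a defining B cell gene, was listed at 0 in all libraries and the list summed to 6.82, 5.54 and 3.97 FPKM. The neutrophil list had another course. It summed to 14.4 FPKM (kid), 5.38 (youth) and 4.26 (adult), so its larger difference lay between kid and youth. S100A12, a calcium-binding protein of neutrophils, stood at 5.56, 1.92 and 1.22 FPKM, from 43, 14 and 11 reads. Of the 7 listed genes 3 averaged 1 FPKM or more, on few reads. S100A8 had 16, 3 and 3 reads and S100A9 had 19, 8 and 11. For S100A9 the interval of the youth to kid ratio included 1 (0.169 to 1.07).

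Markers of structural cells were followed too. Of 6 endothelial genes, 3 were lower and 3 higher in adult than in youth (2 lower under a scaling, with TEK on the other side), with differences from -0.27 to 0.34, a median of 0.07 and a list sum of 190 FPKM (kid), 160.2 (youth) and 158 (adult). Of 6 fibroblast genes, 6 were lower (5 under a scaling, without CD34), 5 with an interval below 1, with a median difference of -0.14 and a list sum of 644, 576 and 518 FPKM. The endothelial adhesion molecule PECAM1, at 72.7, 65.3 and 54.1 FPKM, was among the 3 lower in adult than in youth. Among the 3 higher were VWF, at 36.96, 25.4 and 32.3 FPKM, and EMCN, at 31.5, 20.1 and 22.7 FPKM. The fibroblast proteoglycan DCN stood at 416, 369.6 and 341 FPKM. The 5 muscle fibre genes summed to 43436, 53487 and 59020 FPKM, and FPKM is relative to all reads. The haemoglobin gene HBA1 stood at 1.02, 1.08 and 1.37 FPKM, and the red cell list summed to 1.77, 1.31 and 2.13 FPKM. The part of these other cells and of the muscle share in the values of the 9 genes was not tested.

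In the goat assembly ARS1.2 the C1q genes lie in a row in the order C1QA, C1QC, C1QB with no other protein-coding gene between them. The other genes within 2 places of any of the 9 served as a description of the surroundings. Of the 15 such neighbours averaging 1 FPKM or more, 4 were lower in adult than in youth with an interval below 1, against 27.0% of all genes, 7 had an interval above 1, against 22.3%, and the median ratio was 1.19. By the plain FPKM ratio LRFN3, next to TYROBP, was 2.80-fold higher (1.40 to 6.08), at 0.761 FPKM in youth and 2.13 in adult. Below that mean, EPHB2, next to C1QB, stood at 0.787, 0.729 and 0.331 FPKM, a ratio of adult to youth of 0.455 (0.261 to 0.776). TMEM236, next to MRC1, stood at 0.240, 0.509 and 0.0516 FPKM, a ratio of 0.101 (0.00228 to 0.756). ZBTB40, near C1QA, stood at 6.09, 5.80 and 7.02 FPKM. PDGFRB, the growth factor receptor of pericytes and fibroblasts next to CSF1R, stood at 21.1, 19.6 and 16.4 FPKM. EIF4A1, a translation factor next to CD68, stood at 49.6, 44.7 and 33.8 FPKM.

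The typical pattern of the 9 genes was the median of log2(FPKM + 1) about each gene's own mean, 0.21 in kid, 0.31 in youth and -0.56 in adult. Among 6827 other genes with a symbol and an average of 5 FPKM or more, the 8 nearest to it by Euclidean distance over the 3 libraries were IFRD1, PICALM, CD209, REV3L, CD74, PACSIN2, MTFR1 and GLUL. The distances ran from 0.0373 to 0.0590 on the log2 scale. CD74, the invariant chain of the class II histocompatibility complex, stood at 86.4, 96.2 and 52.4 FPKM. IFRD1, a transcriptional co-regulator, stood at 76.2, 80.5 and 44.9 FPKM, and GLUL, glutamine synthetase, at 392, 443 and 235 FPKM. With 3 libraries, many genes can lie near such a pattern.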

How the data were processed

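RNA from the longissimus dorsi was sequenced in 3 libraries, 1 per stage. The authors deposited FPKM per gene in 1 table. FastQC, TopHat2 and DESeq are named without version or role, per the submitters' processing notes. The sources used here give neither genome build nor annotation, counting method, strand setting or treatment of multi-mapping reads. Values of near-identical genes are therefore uncertain.

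The genes and the 21 lists beside them (199 genes, 185 with an entry) were chosen with earlier results of these data known. Entries were matched by gene number through the goat assembly ARS1.2 (21743 of 24689 entries matched, names and gene order only) and otherwise by product text. The gene numbers of CXCL12 and CBLN2 carried product text of another gene and were left out. FPKM steps gave whole reads (within 5e-05 of a read plus 6e-10) for the 16054 entries detected in 3 libraries and for 1157 detected in 2, while 1655 detected in 1 library could not be resolved. The library totals were inferred from the same FPKM steps, as whole numbers that fitted the values best, and the read counts and intervals rest on them. Recovered reads made up 95.3%, 94.9% and 96.3% of these totals for kid, youth and adult. The shortest length that gave whole reads was used, so reads may be understated and intervals are then wider.

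Differences were taken as log2(FPKM + 1) over the 12121 genes averaging 1 FPKM or more. A call of 2-fold needs a difference of at least 1. Exact 95% Clopper-Pearson intervals of FPKM ratios used the recovered reads, and pairs of genes used the conditional odds ratio. Beside the genes described, the rule named the most abundant gene of each list and up to 3 with the largest difference, and the 8 genes nearest in pattern. The text gives part of these, some genes are not reported here, and further genes were named after their values were seen (the C8G, CD247, TEK, CD34, CX3CR1 and CCR2 exceptions, the milk protein genes and the genes next to the 9). Alternatives were the pseudocount, the filter on low values and 4 scalings. Counting the M130-like entry was added after the data were seen. Steps were tested on simulated reads. Python 3.11.15, numpy 2.4.6, pandas 2.3.3 and scipy 1.17.1 were used.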

Additional observations from a re-analysis of the deposited data

How the results depend on the processing

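All 9 genes, or 6 of 6 when an average of 5 FPKM was required, were lower in adult than in youth and than in kid under every alternative run, and none of 75 alternative summary values reversed. Of these, 63 kept their value within the limits used and 12 moved. The number of genes at least 2-fold apart on the log2 scale moved most. For adult against youth it was 1, and became 4 at the smaller pseudocount of 0.1, 0 at the larger one of 5, 2 with equal sums of FPKM and 2 with the M130-like entry counted. For adult against kid it was 0, and became 2 with a pseudocount of 0.1 and 1 with equal sums. A pseudocount of 5 also drew the median difference to -0.54 (adult against youth) and -0.47 (adult against kid), since it shrinks low levels. For youth against kid, 1 interval left out 1, and 4 did under quantile normalization, under a median ratio of 1 and under the trimmed mean of M values, and 2 with the M130-like entry counted. For no comparison was the share of all genes whose interval left out 1 counted under a scaling.

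The trimmed mean moved the median of all genes in adult against kid from -0.10 to 0.03, and the median of the 9 genes relative to it from -0.68 to -0.67. No paired analysis was possible because each stage had 1 library. Depth limits TYROBP and AIF1 most, with 35 and 48 reads in adult.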

Other observations

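Genes of dividing cells, MKI67 and TOP2A, were low in all libraries and highest in youth. MKI67 stood at 0.233 (kid), 0.627 (youth) and 0.0976 FPKM (adult), from 39, 99 and 19 reads. TOP2A stood at 0.418, 0.851 and 0.146 FPKM, from 37, 71 and 15 reads. Both lay below the mean of 1 FPKM used for the comparisons.

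A second complement C3 entry (gene 102188033) stood at 20.2, 20.2 and 9.00 FPKM in kid, youth and adult, 2.24-fold below youth in adult (interval 2.03 to 2.47). It was chosen after the values were seen. The sources used here do not say how reads were divided between both C3 entries.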
